A study of Oryctolagus cuniculus with 6 samples.

Results

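The nuclear genes for the subunits of oxidative phosphorylation were followed in facial nerve RNA from rabbits with facial nerve injury (FNI). Members were chosen by symbol, as the NDUFA, NDUFB, NDUFC, NDUFS and NDUFV genes of complex I, the SDH genes of complex II, the UQCR genes of complex III, the COX4I, COX5, COX6, COX7 and COX8 genes of complex IV, and the ATP5 genes of complex V. This gave 74 of the 17396 genes listed, 53 under their own symbol and 21 under a LOC number to which RefSeq gives a matching symbol. No measured value was used in the choice. Of the 74 genes, 72 passed the filter on low counts. Of these, 69 formed the main set, with 30 in complex I, 4 in complex II, 7 in complex III, 13 in complex IV and 15 in complex V. The 69 are called subunits here, and they include COX4I2, a tissue isoform, and COX7A2L, which takes part in joining complexes. The muscle isoform COX7A1 was kept apart. So were ATP5S and ATP5SL, which carry an ATP5 name without being subunits of the enzyme. The muscle isoform COX6A2 and the testis isoform COX7B2 did not pass the filter. COX8B, the other muscle isoform of the rule, as well as CYC1, ATP5IF1, COX6B2, COX8C, NDUFV1, NDUFS7, NDUFS8 and the subunits encoded in mitochondrial DNA, were not analysed here.

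The FNI group and the FNI+I-125 group each held 3 male Japanese white rabbits of 3 to 4 months, labelled wild type, and each rabbit gave 1 library. In both groups the facial nerve had been cut at its main trunk, so the FNI animals are injured controls without a seed. In the FNI+I-125 group a sealed radioactive source, an iodine-125 seed of 0.8 mCi, had been placed 0.3 to 0.5 cm from the nerve when the skin was closed, and all nerves were taken on day 14. The controls carried no inactive seed, so the radiation and the implanted object cannot be told apart.

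Total counts ran from 16031151 to 16798012 per library. The libraries differed widely in tissue markers. The 13 Schwann cell markers, which define the labelled tissue, were found in all 6 libraries. Their summed CPM (counts scaled to the normalized size of each library) were 7999, 4505 and 38867 in the FNI libraries. In the FNI+I-125 libraries they were 872, 4146 and 1980 CPM, all below the FNI values. Salivary gland markers summed to 50177 CPM in FNI replicate 2 and to between 67.9 and 3136 CPM in the other 5 libraries. Skeletal muscle markers summed to 7031 and 6270 CPM in FNI+I-125 replicates 1 and 2, and to between 78.2 and 221 CPM elsewhere. Macrophage markers summed to 849, 1136 and 289 CPM in the FNI libraries and to 1794, 2459 and 1473 CPM in the FNI+I-125 libraries. Neutrophil markers summed to 17.0 to 140 CPM in the FNI libraries against 601 to 1324 CPM with the seed, and adipocyte markers to 1694 to 5122 CPM against 1052 to 1679 CPM. In RNA from whole tissue, fewer cells of a type and less RNA per cell cannot be told apart.

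Oxidative phosphorylation is carried out in the inner mitochondrial membrane. Complex I takes electrons from NADH and complex II from succinate, ubiquinone passes them to complex III, cytochrome c carries them to complex IV, and complex IV hands them to oxygen. Complexes I, III and IV pump protons, and complex V, the ATP synthase, uses the returning protons to make ATP. Most subunits are encoded in the nucleus, and complexes I, III, IV and V also hold subunits made from mitochondrial DNA. In peripheral nerve the axon and the Schwann cell both hold mitochondria, but the messenger RNA of nuclear genes in a nerve segment comes largely from the cells whose nuclei lie in that segment, since neuronal cell bodies lie outside it.

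The subunit genes were close to level between the groups. Across the 69 subunits the median log2 fold change (FC) of FNI+I-125 against FNI was 0.18, that is 1.13-fold, while the median over all 14003 genes tested was 0.01. The fold changes ran from -0.32 for COX4I2 to 0.70 for ATP5G1, and only ATP5G1 and COX7B reached 0.5 in either direction, a size that 34.2% of all genes tested reached. The log2 FC was above 0 for 61 of the 69 subunits, or 88.4%, beside 51.1% of all genes tested. The 95% interval lay within 2-fold in both directions for 63 of the 69, or 91.3%, beside 51.9% of all genes tested.

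The study's criterion, which asks for |log2 FC| of at least 1.5 with an adjusted p below 0.05, called 0 members and 0 of all genes tested with edgeR's quasi-likelihood test. DESeq2 called 413 of 13936 genes by it, and edgeR called 40 of 14276 genes without FNI+I-125 replicate 3, and 0 members were among either. The smallest Benjamini-Hochberg adjusted p of a member in this test was 0.280. At an unadjusted p under 0.05, 3 of the 72 members were higher with the seed and 0 were lower, which is 4.17% higher beside 9.23% of all genes tested. For lower genes the share over all genes tested was 7.73%. The 3 genes were ATP5G1, COX7B and NDUFS1. DESeq2 and limma-voom gave the same 3 genes at an unadjusted p under 0.05. In 7 of the 72 members, or 9.72%, the 3 FNI+I-125 values all lay above the 3 FNI values, beside 14.8% of all genes tested. These were NDUFS1, NDUFA5, NDUFC1, NDUFC2, COX5A, COX7B and ATP5G1. The reverse was seen in 0 members, beside 12.3% of all genes tested. The shares called and the shares without overlap were thus not above those of all genes tested, but they turned on single libraries. Without FNI replicate 2, 9 of 73 members (12.3%) were called higher, beside 7.99% of all genes, and 36 (49.3%) were higher without overlap, beside 20.6%. Without FNI+I-125 replicate 1, 19 of 72 members (26.4%) were higher without overlap, beside 18.7%, while without FNI+I-125 replicate 2 there were 6 (8.33%), also beside 18.7%.

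**Figure D1:**
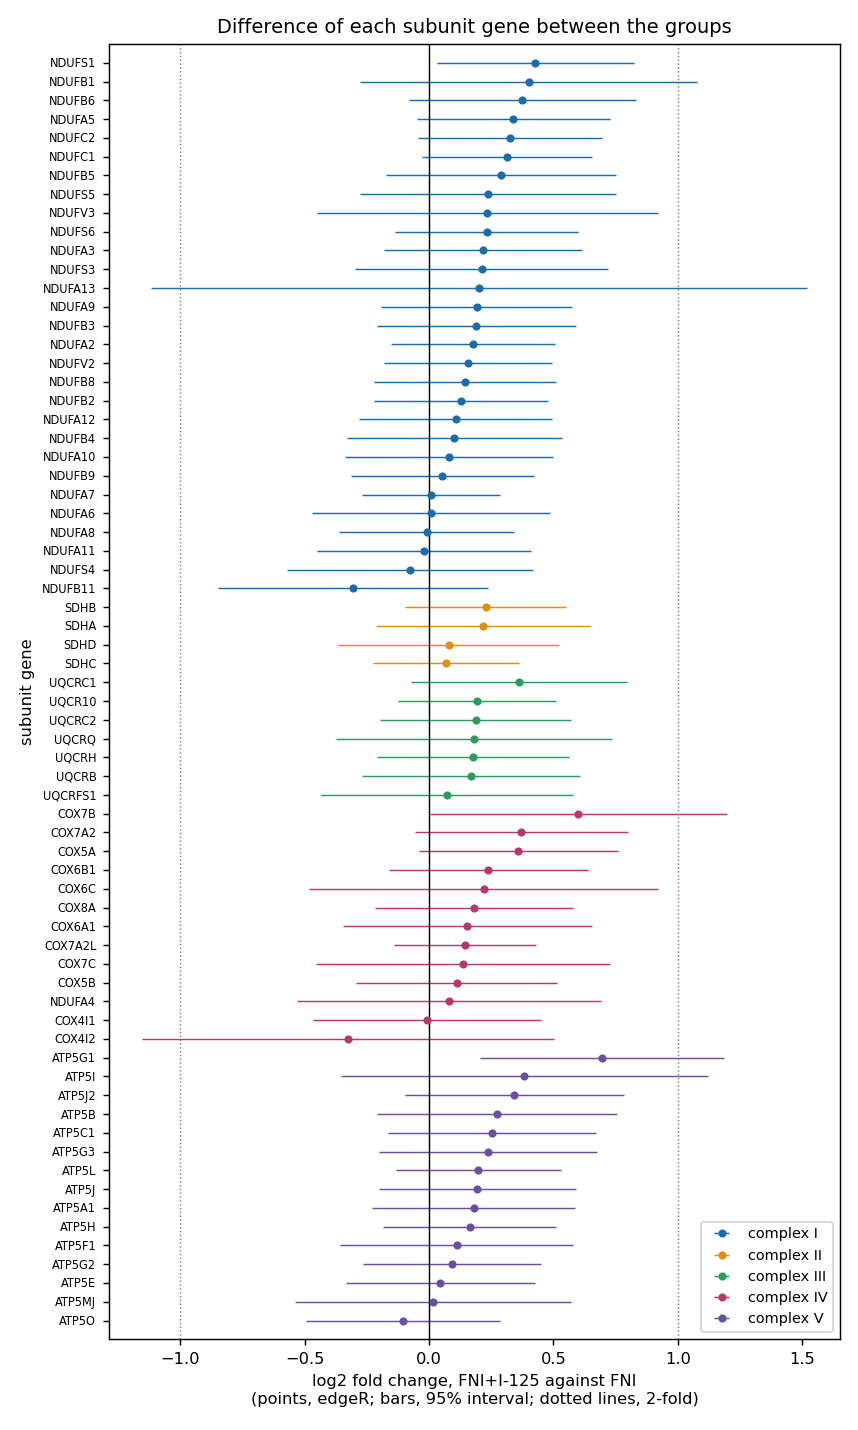
Log2 fold change of FNI+I-125 against FNI for the subunit genes, grouped by complex, with 1 of the 69 not shown (points, edgeR estimates from 3 libraries per group; bars, 95% intervals; dotted lines, 2-fold). Most points lie slightly right of 0, between -0.32 and 0.70, and the bars of ATP5G1, COX7B and NDUFS1 are the ones that do not cross 0.

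Replicate 2 of each group held high levels of most subunits, with 66 of the 69 above their FNI mean in FNI replicate 2 and 65 in FNI+I-125 replicate 2, while FNI+I-125 replicates 1 and 3 had 39 and 50. Summed over the 69 subunits, FNI replicates 1, 2 and 3 held 4408, 5383 and 4394 CPM, and FNI+I-125 replicates 1, 2 and 3 held 4653, 6039 and 5183 CPM. FNI replicate 2 lay above FNI+I-125 replicates 1 and 3, so the groups overlapped. The group means were 4728 ± 567 and 5292 ± 699 CPM (SD, n = 3 each), a ratio of 1.12, and their difference was smaller than either SD.

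FNI+I-125 replicate 2 was the highest of the 6 libraries for 52 of the 69 subunits. FNI replicates 1 and 3 were the lowest for 27 and 26 subunits. Compared with the FNI libraries, FNI+I-125 replicate 2 exceeded all 3 of them in 56 subunits and fell below all 3 in 0. FNI+I-125 replicate 1 exceeded all 3 in 12 and fell below all 3 in 13, and replicate 3 did so in 21 and 6. The small shift of the group median therefore came unevenly from its libraries. Without FNI+I-125 replicate 2 the median log2 FC of the 69 subunits was 0.04, and 43 of the 69 were above 0. Without FNI replicate 3 it was 0.12. Without FNI replicate 2, the highest control and the library with the gland markers, the median was 0.27, and 65 of the 69 were above 0.

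Macrophage markers were highest in FNI+I-125 replicate 2. Muscle markers were high in FNI+I-125 replicates 1 and 2, at 7031 and 6270 CPM, where the 69 subunits summed to 4653 and 6039 CPM. With FNI+I-125 replicates 1 and 2 left out, the median log2 FC was 0.06, from 1 remaining seed library. The part of muscle, macrophage, neutrophil, fat, gland and Schwann cell transcripts in these levels was not tested.

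**Figure D2:**
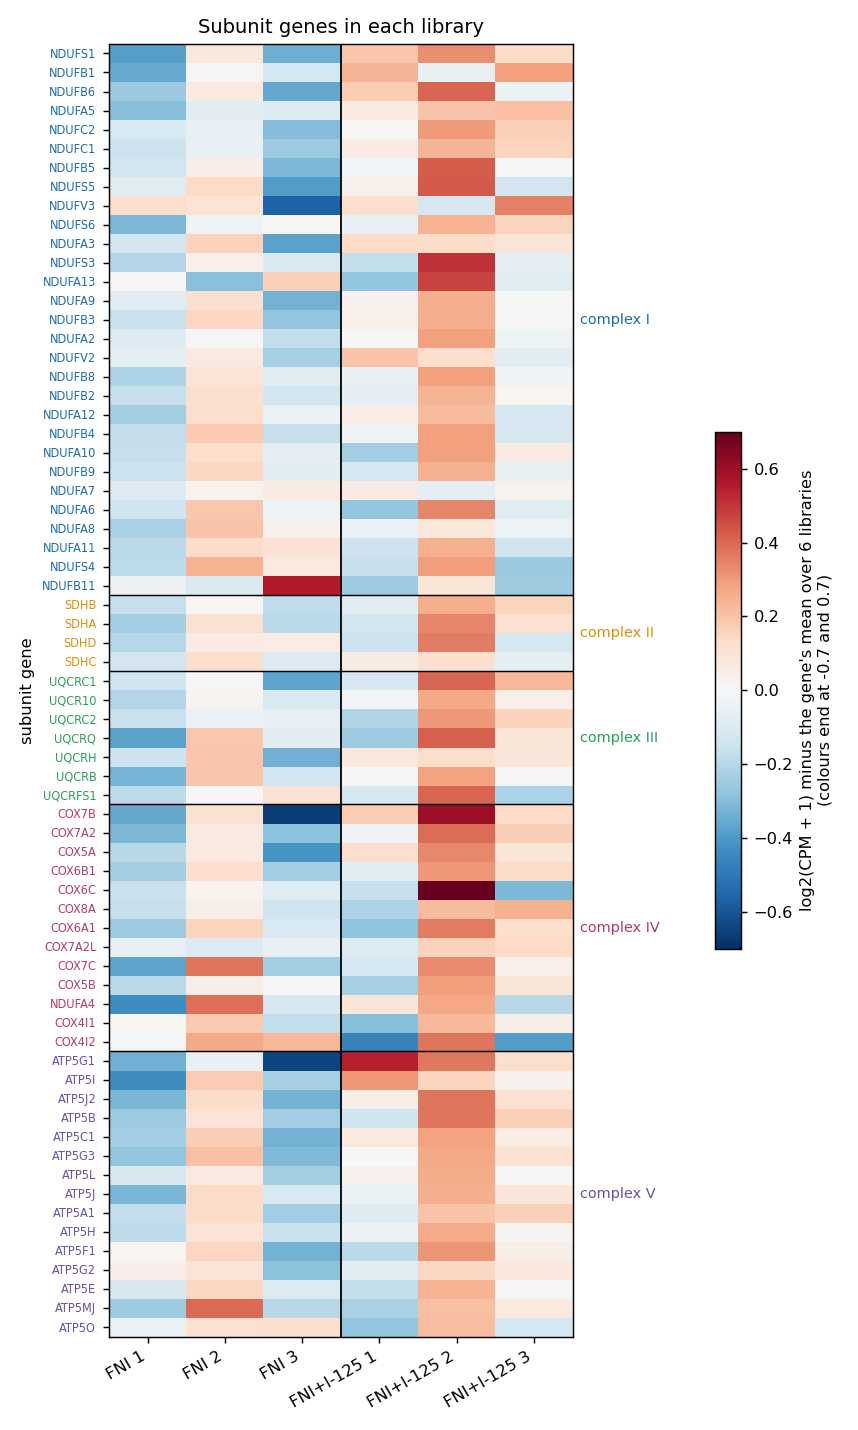
Level of the subunit genes (rows, by complex, with 1 of the 69 not shown) in the 6 libraries (columns), as log2(CPM + 1) minus the gene's mean over the 6 libraries, with colours ending at -0.7 and 0.7. The column of FNI+I-125 replicate 2 is red in most rows, the columns of FNI replicates 1 and 3 are mostly blue, and FNI replicate 2 is mostly pale red.

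Complex I, the NADH dehydrogenase, has a peripheral arm with the core redox subunits and a membrane arm with most accessory subunits. Its 30 subunits summed to 1006, 1204 and 1036 CPM in the FNI libraries and to 1087, 1327 and 1107 CPM in the FNI+I-125 libraries. The highest and the second highest sum belonged to replicate 2 of each group. The median log2 FC was 0.18, with 25 subunits above 0 and 5 below, and was 0.025 without FNI+I-125 replicate 2 and 0.079 without FNI replicate 3. The 4 core subunits measured had a median of 0.19 and the 26 accessory subunits one of 0.18.

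NDUFS1 is the largest core subunit and carries iron-sulfur clusters on the path of the electrons. It measured 41.8, 57.9 and 43.1 CPM in the FNI libraries and 62.9, 69.0 and 60.1 CPM in the FNI+I-125 libraries. All 3 seed libraries lay above all 3 controls, the nearest pair being FNI replicate 2 and FNI+I-125 replicate 3. The log2 FC was 0.43 (SE 0.16) at an unadjusted p of 0.0384 and an adjusted p of 0.286 in edgeR's quasi-likelihood test. With 3 against 3 libraries an exact two-sided permutation test cannot go below 0.1, and NDUFS1 was at 0.1. The unadjusted call was lost when any library other than FNI replicate 2 was left out, with p from 0.0634 to 0.130 in the edgeR test, and kept without FNI replicate 2, where the log2 FC was 0.59. Upper-quartile normalization also lost the call (edgeR's test, unadjusted p = 0.0608).

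The accessory subunits NDUFC1, NDUFC2 and NDUFA5 were likewise without overlap between the groups. NDUFC1 and NDUFC2 sit in the membrane arm. NDUFC1 measured 15.8, 16.9 and 14.6 CPM against 18.3, 20.9 and 19.7 CPM in the seed libraries, a log2 FC of 0.31 (SE 0.14). NDUFC2 measured 19.6, 20.3 and 17.0 CPM against 21.2, 26.3 and 23.9 CPM, a log2 FC of 0.33 (SE 0.15). The highest control and the lowest seed library differed by more than the SD of either group in NDUFC1 and by less than it in NDUFC2. NDUFA5, of the peripheral arm, measured 9.84, 11.7 and 11.5 CPM against 12.9, 14.3 and 14.4 CPM, a log2 FC of 0.34 (SE 0.16). Unadjusted p-values of these genes in the edgeR test were 0.0656, 0.0738 and 0.0770.

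NDUFB11, a membrane arm subunit encoded on the X chromosome in mammals, had the lowest estimate in complex I. It measured 44.6, 42.8 and 67.9 CPM in the FNI libraries and 38.3, 48.8 and 38.5 CPM in the seed libraries. FNI replicate 3 alone was high and the other 5 libraries overlapped, with a log2 FC of -0.31 (SE 0.22, edgeR unadjusted p = 0.217). NDUFS4, an accessory subunit known from Leigh syndrome, had a log2 FC of -0.08 (95% interval -0.57 to 0.42). NDUFA6 was nearest no change, at 0.01 (95% interval -0.47 to 0.49). NDUFA13 was measured with little precision, at 0.630 to 1.77 CPM in the 6 libraries, and its 95% interval ran from -1.12 to 1.52.

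Complex II, the succinate dehydrogenase, also belongs to the tricarboxylic acid (TCA) cycle and has no subunit from mitochondrial DNA. Its 4 genes summed to 344, 420 and 358 CPM in the FNI libraries and to 372, 481 and 410 CPM in the FNI+I-125 libraries. FNI replicate 2 was above 2 of the 3 seed libraries. The median log2 FC was 0.15, and it was 0.034 without FNI+I-125 replicate 2, 0.085 without FNI replicate 1 and 0.24 without FNI+I-125 replicate 1. SDHA, the flavoprotein that oxidises succinate, measured 173, 220 and 178 CPM against 186, 258 and 219 CPM, and SDHB, its iron-sulfur partner, 55.9, 62.9 and 55.2 CPM against 59.1, 74.8 and 69.9 CPM. Their log2 FCs were 0.22 (SE 0.18) and 0.23 (SE 0.13), and the groups overlapped in both. The membrane anchors SDHC and SDHD had log2 FCs of 0.07 (95% interval -0.22 to 0.36) and 0.08 (95% interval -0.36 to 0.52).

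Complex III passes electrons from ubiquinol to cytochrome c. The sums of its 7 subunits were 401, 491 and 410 CPM against 434, 582 and 499 CPM, and all 7 log2 FCs were above 0, with a median of 0.18. The median was 0.046 without FNI+I-125 replicate 2 and 0.33 without FNI replicate 2. UQCRC1 and UQCRC2 form the large matrix domain of the complex. UQCRC1 measured 101, 110 and 86.2 CPM in the FNI libraries and 103, 148 and 132 CPM in the seed libraries. FNI+I-125 replicate 1 lay between the controls while the other 2 seed libraries were above them, and the log2 FC was 0.36 (SE 0.18, edgeR unadjusted p = 0.0884). UQCRC2 had a log2 FC of 0.19 (SE 0.16), as had the small subunit UQCR10 (SE 0.13). UQCRFS1, the Rieske iron-sulfur protein and the catalytic subunit measured, was nearest no change, at 0.07 (95% interval -0.43 to 0.58).

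Complex IV, cytochrome c oxidase, has paired isoforms for several nuclear subunits. Its 13 subunits summed to 946, 1164 and 931 CPM in the FNI libraries and to 938, 1311 and 1113 CPM in the seed libraries. FNI+I-125 replicate 1 lay between FNI replicates 1 and 3, and the median log2 FC was 0.15, with 11 subunits above 0. It was -0.03 without FNI+I-125 replicate 2, 0.27 without FNI replicate 2 and 0.31 without FNI+I-125 replicate 1.

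COX7B, a small subunit that spans the membrane, had the widest shift in complex IV. It measured 37.9, 52.7 and 30.6 CPM in the FNI libraries and 55.3, 74.5 and 53.8 CPM in the seed libraries. The groups were separate, but FNI replicate 2 and FNI+I-125 replicate 3 differed by far less than the SD of 11.3 and 11.6 CPM. The log2 FC was 0.60 (SE 0.24), with an unadjusted p of 0.0491 and an adjusted p of 0.293 in the edgeR test. The unadjusted call was lost without any library other than FNI replicate 2. In edgeR's test it was also lost with no filter on low counts (unadjusted p = 0.0539) and with upper-quartile normalization (unadjusted p = 0.0721). Asking for at least 10 counts in every library gave an unadjusted p of 0.0543 in the same test.

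COX5A, a subunit on the matrix side, measured 42.1, 50.6 and 36.0 CPM against 52.6, 61.3 and 51.2 CPM. The groups were again separate by a margin far under their SD, and the log2 FC was 0.36 (SE 0.16, edgeR unadjusted p = 0.0696). COX7A2 had a log2 FC of 0.37 (SE 0.17), with FNI replicate 2 at 36.0 CPM above FNI+I-125 replicate 1 at 33.9 CPM. COX6B1 and COX8A had log2 FCs of 0.24 (SE 0.16) and 0.18 (SE 0.16). COX7A2L, which takes part in joining complexes III and IV into supercomplexes, was steady at 39.8 to 41.1 CPM in the controls and 39.8 to 47.7 CPM in the seed libraries, with a log2 FC of 0.14 (SE 0.12). In COX6C, 1 library stood apart: FNI+I-125 replicate 2 measured 68.3 CPM and the other 5 lay between 33.5 and 42.6 CPM.

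Subunit 4 has the common isoform COX4I1 and the isoform COX4I2, which is known for lung and for low oxygen. COX4I1 measured 321, 361 and 282 CPM against 259, 373 and 328 CPM and was nearest no change in complex IV, with a log2 FC of -0.01 (95% interval -0.47 to 0.45). COX4I2 measured 5.51, 6.87 and 6.68 CPM against 3.73, 7.49 and 3.99 CPM. FNI+I-125 replicates 1 and 3 were below the controls and replicate 2 was above them, and the log2 FC was -0.32 (SE 0.34). The share of COX4I2 in the counts of both genes was 1.68%, 1.87% and 2.32% in the controls against 1.42%, 1.97% and 1.20% in the seed libraries, with an exact permutation p of 0.3. Without FNI+I-125 replicate 2, COX4I2 was the 1 member lower at an unadjusted p under 0.05. NDUFA4, once counted in complex I and now placed in complex IV, had a log2 FC of 0.08 (95% interval -0.53 to 0.69). Its relative NDUFA4L2, which is not a member of the set and is known to be induced by low oxygen, measured 18.3, 13.2 and 11.5 CPM against 31.8, 18.8 and 16.9 CPM, a log2 FC of 0.65 (SE 0.31, edgeR unadjusted p = 0.0828).

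Complex V has a catalytic F1 head, a stalk, and a membrane part with a ring of c subunits. Its 15 subunits summed to 1711, 2105 and 1658 CPM in the FNI libraries and to 1823, 2337 and 2054 CPM in the seed libraries. FNI replicate 2 exceeded 2 of the 3 seed libraries, as in complexes I, II and IV. The median log2 FC was 0.19, with 14 of 15 above 0, and was 0.085 without FNI+I-125 replicate 2, 0.11 without FNI replicate 3 and 0.30 without FNI replicate 2. The catalytic subunit ATP5B (also called ATP5F1B) measured 396, 506 and 399 CPM against 429, 613 and 530 CPM, a log2 FC of 0.27 (SE 0.20). Its partner ATP5A1 (ATP5F1A) measured 324, 399 and 308 CPM against 341, 418 and 409 CPM, a log2 FC of 0.18 (SE 0.17). The groups overlapped in both.

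ATP5C1, the rotating shaft of the head, and ATP5J2, a small subunit of the membrane part, had log2 FCs of 0.26 (SE 0.17) and 0.34 (SE 0.18). ATP5O, which ties the head to the outer stalk, was the 1 subunit of complex V below 0, at -0.11 (SE 0.16), and measured 140, 156 and 157 CPM against 120, 168 and 132 CPM. ATP5MJ, a small membrane subunit, was nearest no change, at 0.02 (95% interval -0.54 to 0.57).

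**Figure D3:**
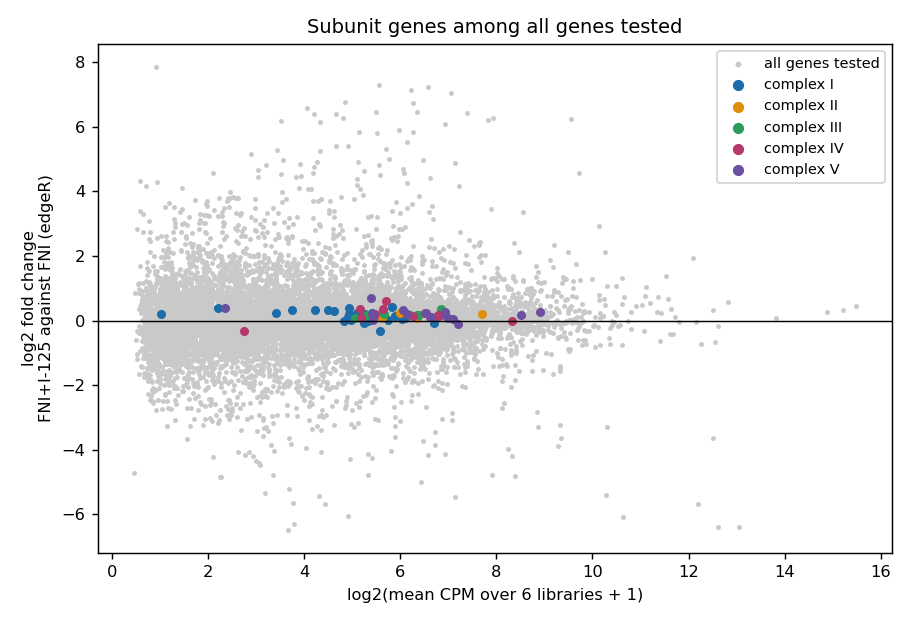
Log2 fold change of FNI+I-125 against FNI (y axis, edgeR) against level (x axis, log2 of the mean CPM over the 6 libraries plus 1) for all 14003 genes tested (grey) and the 69 subunit genes (coloured by complex). The subunits lie in a narrow band from -0.32 to 0.70, while the grey points spread over several log2 units in both directions.

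The c ring gave the clearest single gene. Mammals have 3 genes for subunit c, ATP5G1, ATP5G2 and ATP5G3 (ATP5MC1, ATP5MC2 and ATP5MC3), whose mature proteins are identical and whose import sequences differ. ATP5G1 measured 31.0, 38.0 and 24.9 CPM in the FNI libraries and 58.1, 51.2 and 43.0 CPM in the seed libraries. Every seed library was above every control, and the lowest seed library exceeded the highest control by less than the SD of 6.56 and 7.55 CPM. The log2 FC was 0.70 (SE 0.20), that is 1.62-fold (95% interval 1.15 to 2.28), with an unadjusted p of 0.0132 and an adjusted p of 0.280 in edgeR's quasi-likelihood test. The highest seed library was replicate 1, unlike the set as a whole, where replicate 2 was highest. Skeletal muscle markers were also highest in FNI+I-125 replicate 1, at 7031 CPM, beside 6270 and 78.2 CPM in replicates 2 and 3. The part of muscle transcripts in the ATP5G1 values was not tested.

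ATP5G1 was below an unadjusted p of 0.05 in edgeR with each of the 6 libraries left out in turn, with p from 0.00824 to 0.0453 and log2 FCs from 0.54 to 0.86. Without FNI+I-125 replicates 1 and 2 the log2 FC was 0.42, a value that sets 1 seed library against the controls.

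ATP5G2 measured 129, 133 and 102 CPM against 119, 138 and 131 CPM, a log2 FC of 0.09 (95% interval -0.26 to 0.45). ATP5G3 measured 74.7, 105 and 72.9 CPM against 90.8, 109 and 97.3 CPM, a log2 FC of 0.24 (95% interval -0.20 to 0.67). The groups overlapped for both. ATP5G1 thus made up 13.2%, 13.8% and 12.5% of the counts of the 3 genes in the controls, against 21.7%, 17.2% and 15.8% in the seed libraries. These shares were looked at after the values had been seen. The lowest seed share, 15.8% (exact 95% binomial interval 14.8% to 16.9%), and the highest control share, 13.8% (12.8% to 14.9%), had intervals that met only at their ends. The group means were 13.2 ± 0.67% and 18.2 ± 3.09% (SD, n = 3 each), and the exact two-sided permutation p was 0.1, the smallest that 3 against 3 libraries can give. The intervals cover counting error only, and the counts were not divided by transcript length, so the shares are of reads and not of molecules.

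**Figure D4:**
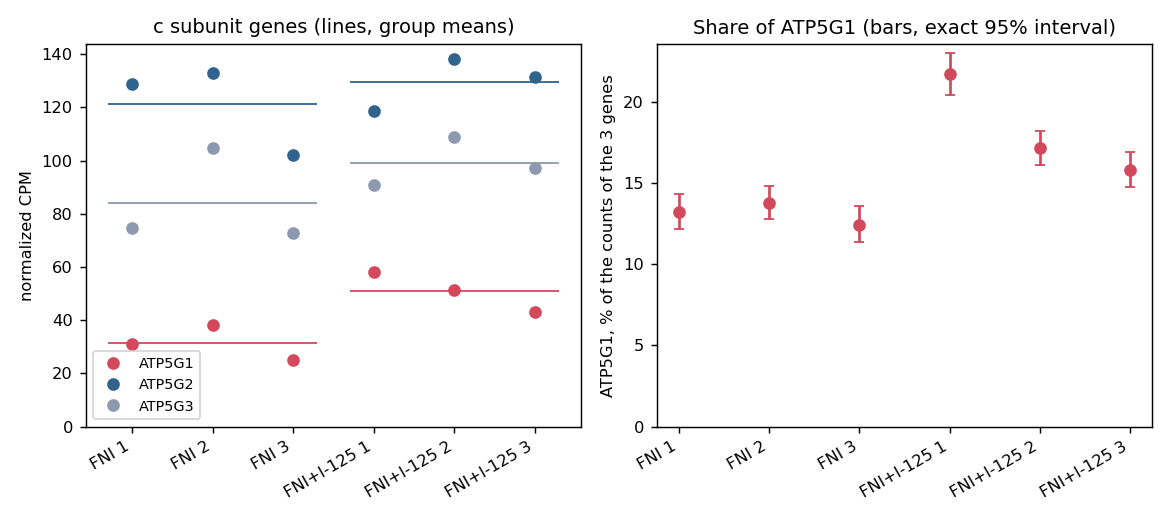
Left, CPM of the 3 genes for subunit c in each library (points) with group means (lines); levels are not per length and are not compared between genes. Right, ATP5G1 as a percentage of the counts of the 3 genes (points, with exact 95% binomial intervals), at 12.5% to 13.8% in the FNI libraries and 15.8% to 21.7% in the FNI+I-125 libraries.

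The muscle isoforms were highest in the 2 libraries with high muscle markers, which was not so of their common paralogs. COX6A2 is the heart and skeletal muscle isoform of subunit 6A and COX6A1 the common one. COX6A2 had counts of 7, 1 and 6 in the controls and of 215, 284 and 0 in the FNI+I-125 libraries, which is 0.410, 0.0630 and 0.355 CPM against 14.1, 17.3 and 0 CPM. Replicates 1 and 2 of the seed group were high and replicate 3 had no count, where 0 counts allow up to 0.176 CPM (3 counts, for counting error only). COX6A1 measured 91.9, 122 and 102 CPM against 90.2, 142 and 119 CPM, a log2 FC of 0.15 (SE 0.20). COX6A2 was 0.444%, 0.0516% and 0.348% of the counts of both genes in the controls, against 13.5%, 10.9% and 0% (0 of 2033 counts, which allows up to 0.148%) in the seed libraries.

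Since COX6A2 did not pass the filter, it had no main test. With no filter on low counts its log2 FC in edgeR was 5.19 (SE 1.82, unadjusted p = 0.0277, adjusted p = 0.322). The exact two-sided permutation p was 0.4 for its log2(CPM + 1) and 0.4 for its share of the counts of COX6A1 and COX6A2.

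COX7A1, the muscle isoform of subunit 7A, is also made in other tissues such as brown fat. It had counts of 23, 56 and 54 in the controls and of 59, 102 and 4 in the seed libraries, or 1.35, 3.53 and 3.19 CPM against 3.86, 6.21 and 0.235 CPM. Seed replicates 1 and 2 were above the controls and replicate 3 was below them, and the log2 FC was 0.35 (SE 1.00, edgeR unadjusted p = 0.738). With FNI+I-125 replicates 1 and 2 left out it was -3.51, a value from 1 seed library with 4 counts. COX7A1 was 4.67%, 8.92% and 10.2% of the counts of COX7A1 and COX7A2 in the controls and 10.2%, 12.0% and 0.600% in the seed libraries. The exact two-sided permutation p of this share was 0.9.

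Muscle markers were high in the same 2 libraries. Of 26 skeletal muscle markers written down, 21 were listed and 19 were tested, and all 19 were higher in the seed group at an unadjusted p under 0.05 (edgeR) while the groups overlapped in each of them. ACTA1, the actin of skeletal muscle, measured 37.5, 2.39 and 18.6 CPM in the FNI libraries and 2236, 2200 and 2.05 CPM in the seed libraries. MYH4 and PVALB were at a count of 0 in FNI+I-125 replicate 3. CKMT2, the sarcomeric creatine kinase of mitochondria, measured 1.87, 2.14 and 0.473 CPM against 20.1, 29.3 and 1.23 CPM. In all of these, replicates 1 and 2 of the seed group were high and replicate 3 was not. The labels name the tissue as facial nerve, and the part of muscle tissue in the COX6A2 and COX7A1 counts was not tested.

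**Figure D5:**
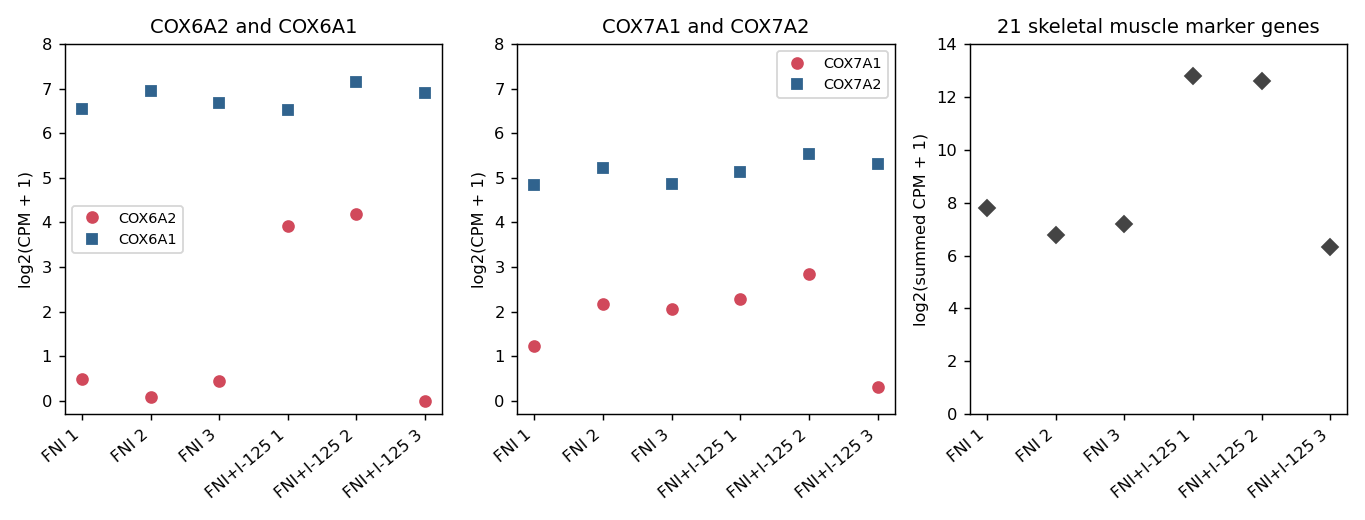
Left and middle, log2(CPM + 1) of COX6A2 with COX6A1 and of COX7A1 with COX7A2 in the 6 libraries; right, log2 of the summed CPM plus 1 of the 21 listed skeletal muscle markers. COX6A2 and the markers are high in FNI+I-125 replicates 1 and 2 and low in the other 4 libraries, while COX6A1 and COX7A2 differ little between libraries on this scale.

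Genes around oxidative phosphorylation were read from 11 lists. They covered assembly factors, electron and ATP carriers, the TCA cycle, regulators of mitochondrial biogenesis, import and outer membrane proteins, and genes linked to low oxygen or mitophagy. Another of the 11 held 26 symbols for subunits encoded in mitochondrial DNA, of which 0 were listed. Of 188 genes written down, these 26 included, 136 were tested. Of these, 13 were higher at an unadjusted p under 0.05 in the edgeR test and 4 were lower, which is 9.56% and 2.94% beside 9.23% and 7.73% of all genes tested. Their median log2 FC was 0.12. None passed the adjusted threshold in edgeR, where the smallest adjusted p was 0.280 for these genes as well.

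Assembly factors of complex IV held 3 of the 13 higher genes. HIGD1A, an inner membrane protein that associates with complex IV and is induced by low oxygen, measured 17.4, 16.5 and 17.3 CPM against 36.1, 33.5 and 24.3 CPM, a log2 FC of 0.88 (SE 0.18, edgeR unadjusted p = 0.00287). COX17, the copper chaperone of complex IV, measured 21.3, 26.5 and 20.2 CPM against 37.4, 40.8 and 33.5 CPM, a log2 FC of 0.71 (SE 0.16, edgeR unadjusted p = 0.00405). In both, all seed libraries lay above all controls by more than the SD of the controls. COX10, which acts in haem A synthesis, had a log2 FC of 0.66 (SE 0.21). COX14, which acts in making subunit COX1, had one of -1.0 (SE 0.39), with FNI replicate 3 highest at 18.9 CPM. The other 19 factors of complex IV tested were not called in either direction.

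In complex I, the assembly factor NDUFAF4 had a log2 FC of 0.61 (SE 0.21) and the assembly factor FOXRED1 one of -0.52 (SE 0.15). The acyl carrier protein NDUFAB1, which is also a subunit of complex I but lies outside the symbols of the rule, measured 20.8, 21.1 and 19.1 CPM against 25.9, 29.1 and 25.7 CPM. Its log2 FC was 0.40 (SE 0.13, edgeR unadjusted p = 0.0188), and the groups did not overlap. None of the 13 assembly factors of complexes II, III and V was called at an unadjusted p under 0.05 in edgeR, with the smallest p at 0.0909 for UQCC3 (log2 FC -0.25, SE 0.12), 0.104 for ATPAF1 (log2 FC 0.28, SE 0.14) and 0.210 for BCS1L (log2 FC 0.23, SE 0.17).

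Among the remaining lists, PDHA1, a subunit of pyruvate dehydrogenase, had a log2 FC of 0.37 (SE 0.11) and IDH3G, of the isocitrate dehydrogenase of the TCA cycle, one of -0.32 (SE 0.12), and the other 15 genes of this list were not called. The outer membrane channels VDAC1 and VDAC3 had log2 FCs of 0.33 (SE 0.12) and 0.45 (SE 0.14), and the chaperonin HSPD1 one of 0.35 (SE 0.14). The mitophagy receptor BNIP3 had one of 0.51 (SE 0.12), and UCP2, an inner membrane carrier abundant in immune cells, one of 0.92 (SE 0.24).

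Of 19 regulators of mitochondrial biogenesis tested, 1 was called higher and 1 lower at an unadjusted p under 0.05 (edgeR). The shares over all genes tested were 9.23% higher and 7.73% lower. PPARGC1B, a coactivator of mitochondrial biogenesis, measured 13.8, 14.9 and 17.6 CPM against 22.8, 30.01 and 26.5 CPM, a log2 FC of 0.78 (SE 0.17, edgeR unadjusted p = 0.00394), without overlap between the groups. The deacetylase SIRT1 had one of -0.39 (SE 0.16). The log2 FC was -0.14 (SE 0.32) for PPARGC1A, -0.28 (SE 0.18) for NRF1, 0.04 (SE 0.13) for GABPA, -0.25 (SE 0.22) for TFAM and 0.25 (SE 0.32) for ESRRA, and none of these 5 was called. TFB2M and SSBP1, which act on mitochondrial DNA, had log2 FCs of 0.47 (SE 0.21) and 0.41 (SE 0.19), higher without overlap but not called. PPRC1, a coactivator, stood at 0.58 (SE 0.33). PERM1, a regulator in muscle, stood at 1.94 (SE 1.00) and measured 0.761, 0.567 and 1.12 CPM against 4.31, 4.93 and 0.235 CPM, again high in FNI+I-125 replicates 1 and 2. Macrophage markers were higher in the seed group as well. Of the 10 tested, 5 were called higher in the edgeR test at an unadjusted p under 0.05, beside 9.23% of all genes tested. The part of macrophage and muscle transcripts in the values of UCP2, PPARGC1B and HIGD1A was not tested.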

How the data were processed

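RNA-seq libraries of 3 FNI and 3 FNI+I-125 facial nerves were used. The authors deposited raw counts per gene, 1 file per library, without normalization. The submitters' processing notes name HISAT2 and OryCun2.0, and the counting program, its strand setting and the annotation are not given in the sources used here. Subunit genes have near-identical processed copies, so reads could be split among them. The labels and the methods differ on the RNA extraction kit.

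LOC numbers (2992 of 17396 identifiers) were given symbols from the RefSeq gene table of assembly mOryCun1.1, with 542 matched. Taking members by these symbols too had been planned as the alternative and was made the main choice, since the rule's own COX6A2 and COX7A1 are listed only so. Older ATP5 names follow the files.

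Counts were fitted over all genes in R 4.3.3 with edgeR 4.0.16 (TMM, filterByExpr with a minimum count of 10, glmQLFit and glmQLFTest, two-sided, Benjamini-Hochberg over 14003 genes). CPM use TMM library sizes. Single values were compared by the exact permutation test. SEs are derived from the fold change and its F statistic. Named genes are the isoforms and their paralogs, the SDH genes, NDUFA4 and NDUFA4L2, the 3 smallest p-values per direction in complexes I, III, IV and V, the member nearest no change in each complex, the 2 smallest p-values of each list around them, and the 2 most abundant markers of some cell types, of which ACTA1 is given. Other genes, such as ATP5A1, ATP5B, ATP5G2, ATP5G3, COX6C, NDUFA5, NDUFA13, COX10, COX14 and PPARGC1A, were chosen after their values were seen. A gene that this rule selects is not reported here. Members, lists and tests were chosen with earlier results of these data known. Alternatives were DESeq2 1.42.0, limma-voom (limma 3.58.1), other normalizations and filters, a replicate block, and leaving out libraries. glmQLFit with legacy = FALSE was added after seeing the data. The edgeR fit was tested on simulated data. No 2 libraries agreed within sampling noise. Nothing says more of the animals than 1 library each, so p-values measure the spread between these samples.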

Additional observations from a re-analysis of the deposited data

How the results depend on the processing

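In the main edgeR fit no member passed the adjusted threshold with |log2 FC| of 1.5, with |log2 FC| of 1 or with no fold threshold. With |log2 FC| of 1.5 none did in DESeq2, limma-voom or any other alternative run, and the lower fold thresholds were not counted there. The largest log2 FC of a tested member in the main fit was 0.70, so a threshold of 1.5 was out of reach in that fit. The count of members higher at an unadjusted p under 0.05, 3 as reported, was 1 with upper-quartile normalization (1.39%, beside 7.2% of all genes), 7 with the replicate block (9.72% beside 9.03%), 0 without FNI+I-125 replicates 1 and 2 (beside 1.97%), and 1 to 9 with single libraries left out (1.37% to 12.3%, beside 6.0% to 8.2%), the 9 without FNI replicate 2. The count of lower members, 0 as reported, was 0 to 1 with single libraries left out, beside 3.71% to 7.51% of all genes. Members without overlap numbered 7 higher and 0 lower as reported, and 4 higher with upper-quartile normalization (beside 11.9% of all genes). With single libraries left out, 5 to 36 were higher (beside 16.5% to 20.8% of all genes) and 0 to 4 lower (beside 16.1% to 19.8%). Without FNI+I-125 replicates 1 and 2, 17 were higher and 7 lower (beside 28.8% and 30% of all genes), where fewer libraries make separation easier. The 36 came without FNI replicate 2 and made up 49.3% of members, beside 20.6% of all genes.

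The median log2 FC of complex I, 0.18 as reported, ran from 0.025 to 0.23 with single libraries left out and was 0.0075 without FNI+I-125 replicates 1 and 2. That setting also gave log2 FCs of -3.51 for COX7A1 and -0.32 for CKMT2. The difference between the groups in mean log2(CPM + 1) of COX6A2 was -0.35 there and 2.36 with all libraries kept. The causes were not tested, beyond the smaller number of libraries. Over the 69 subunits the median log2 FC ran from 0.04 to 0.27 with single libraries left out. Taking members only by the files' own symbols gave 2 members higher and a median of 0.18.

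Over all genes tested, same-numbered libraries of the groups did not deviate together (correlations of 0.05, -0.19 and -0.14). The numbers were therefore not taken as pairs, and the 7 members called with the block are given for completeness. Over the 69 subunits alone, replicate 2 had the highest summed CPM in both groups. Without pairs and with 3 libraries per group, changes of the size seen in most subunits were not detectable: the median SE was 0.17 on the log2 scale.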
